A study of Sus scrofa with 67 samples.

Results

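Muscle of pigs fed any extra lysine in weeks 5 to 8 after weaning was compared with muscle of pigs fed none in the same weeks. Members were chosen by library title: 24 libraries whose diet held 10% or 20% more digestible lysine, and 24 second-period libraries on the standard diet, 48 of the 67 libraries in all. RNA came from the longissimus dorsi, the long back muscle that runs beside the spine, of Swiss Large White pigs, females and castrated males from 20 litters. LP-STD10+ and LP-STD20+ (n = 12 each) are pigs that ate a low protein diet for the first 4 weeks and then the standard diet with 10% or 20% more digestible lysine. LP-STD (n = 12) are pigs with the same low protein start and then the standard diet. STD-STD (n = 12) are pigs on the standard diet throughout. The low protein diet held 81% of the total and 79% of the digestible crude protein of the standard diet, with digestible amino acids kept at requirement in both. Every lysine pig therefore began on low protein, while only LP-STD shares that start among the pigs without extra lysine. The lysine diets also held the other digestible essential amino acids above requirement, so lysine and those amino acids cannot be told apart.

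Lysine is the first limiting amino acid of most cereal-based pig diets, and muscle is the main site where dietary lysine is laid down as protein. When an amino acid runs short, uncharged transfer RNA activates the kinase GCN2, translation of the transcription factor ATF4 rises, and ATF4 switches on genes for serine and asparagine synthesis, one-carbon metabolism, amino acid transporters and aminoacyl-tRNA synthetases. This program is known as the amino acid response, and it falls when supply again meets demand.

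Libraries with extra lysine held 28584177 to 36935497 counts and those without 28871431 to 36634720. The 6 muscle fibre genes in the table, such as those for actin and creatine kinase of muscle, together took 120000 to 329000 CPM (counts scaled for library size) with extra lysine and 138000 to 270000 CPM without, as the tissue label says. By library number the 48 fall into 12 runs, each of 4 neighbouring libraries of 1 group, and 3 stretches of 16 numbers (library sets 1 to 3) each hold 1 run of every group. Runs of 1 group differed from each other in 740 of 13032 genes (5.68%; edgeR quasi-likelihood, Benjamini-Hochberg adjusted p under 0.05), so each main count is also given at the level of runs. LP-STD10+ replicate 10 stands apart in genes of immune cells, and STD-STD replicate 10 in genes of liver, and results that rest on them are given with and without them.

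Of 13032 genes tested, 144 passed between the 24 lysine libraries and the 24 without, 43 higher and 101 lower (edgeR quasi-likelihood, adjusted p under 0.05). This is 1.1% of genes, 0.33% higher and 0.775% lower. Most differences were small: 108 of the 144 were under 0.5 on the log2 scale and 15 were over 1. With counts summed over runs, 6 genes passed (0.046%), all lower, and with correlated runs in limma voom 28 passed (0.215%), 26 lower and 2 higher. Without library set 1 the count was 56, and without library set 2 it was 776. The genes with the largest falls were mainly those of the amino acid response.

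Amino acid response genes were lower with extra lysine. Of 33 tested, 12 fell and 0 rose, 27 lay below 0, and the median log2 difference was -0.35, beside 0.01 over all genes. With correlated runs 5 of the 33 passed, all lower, and with counts summed over runs 1 did. The list was assembled with earlier results of these data known. Mean log2 CPM over the 33 genes was 3.54 in the lowest, 4.02 in the median and 4.97 in the highest lysine library, against 3.66, 4.60 and 5.71 in libraries without extra lysine. The ranges overlap widely, since some pigs without extra lysine also had low values. Group medians were 4.04 in LP-STD10+, 3.95 in LP-STD20+, 4.70 in LP-STD and 4.49 in STD-STD. Group means were 4.11 ± 0.51 in LP-STD20+ and 4.00 ± 0.22 in LP-STD10+ (SD, n = 12 each), the reverse order of their medians. For LP-STD20+ minus LP-STD10+ 26 of the 33 genes lay above 0, with a median difference of 0.26 and 0 past the threshold.

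**Figure D1:**
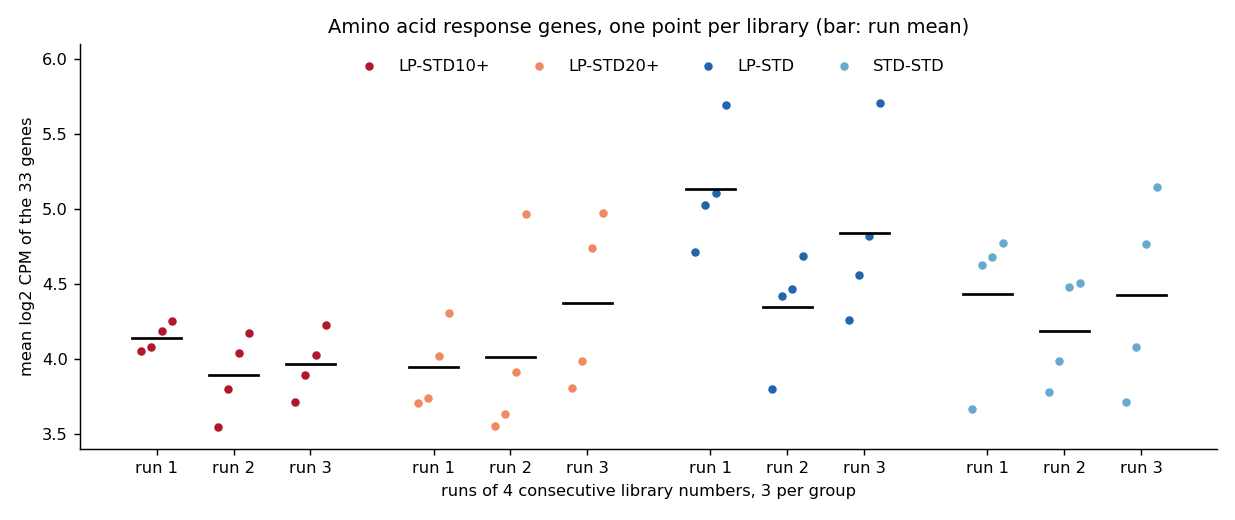
Mean log2 CPM of the 33 amino acid response genes (vertical axis) in each of the 48 libraries, by group and by run of 4 consecutive library numbers; bars are run means (n = 4). Medians were 4.04 in LP-STD10+, 3.95 in LP-STD20+, 4.70 in LP-STD and 4.49 in STD-STD, and the lowest libraries of every group reach below 3.9.

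The serine pathway, which builds serine from a glycolytic intermediate, held the largest falls. PSAT1, its aminotransferase, lies on chromosome 1, 231142673 to 231172364, in Sscrofa11.1. It had 8.55 CPM in the lowest, 22.1 in the median and 85.1 in the highest lysine library, against 15, 80.7 and 331 CPM without extra lysine. The groups overlap, but 23 of 24 lysine libraries lay below the median of those without. The log2 difference was -1.84 ± 0.32 (SE, edgeR adjusted p = 0.00135), 0.28 of the level without extra lysine.

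PHGDH, the dehydrogenase that commits carbon to serine, had 4.99, 11 and 122 CPM (lowest, median, highest) with extra lysine, against 7.45, 60.9 and 199 CPM without. The highest lysine library, at 122 CPM, was a LP-STD20+ pig that sits among the highest LP-STD values, and the other lysine libraries lay low. The log2 difference was -1.80 ± 0.36 (edgeR adjusted p = 0.00617). PSPH, the phosphatase of the last step, had 8.87, 13.6 and 36.6 CPM with extra lysine, against 10.5, 23.6 and 52.8 CPM without. It fell by 0.87 ± 0.17 on the log2 scale (edgeR adjusted p = 0.00458). All 3 enzymes of the pathway thus fell, each with 23 of 24 lysine libraries below the median without extra lysine.

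Serine feeds one-carbon metabolism in mitochondria through SHMT2 and MTHFD2, which were named after their values were seen. SHMT2 had 16.2, 21.7 and 35.4 CPM with extra lysine, against 16.9, 34.1 and 78.1 CPM without, and fell by 0.64 ± 0.13 (edgeR adjusted p = 0.00645). MTHFD2 fell by 0.67 ± 0.15 (adjusted p = 0.0119), with medians of 5.67 CPM with extra lysine and 8.81 CPM without. MTHFD1, the cytosolic enzyme of this cycle and no member of the list, fell by 0.32 ± 0.08 (adjusted p = 0.0268). MTHFD1 too was named after its value was seen.

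Enzymes that make or break other amino acids fell as well. ASNS, asparagine synthetase, had 35.5, 83.7 and 243 CPM with extra lysine, against 50.3, 186 and 373 CPM without. Of the lysine libraries 22 of 24 lay below the median without extra lysine, and the log2 difference was -0.98 ± 0.20 (edgeR adjusted p = 0.00554). ARG2, the mitochondrial arginase, which splits arginine into ornithine and urea, had 17.5, 41.4 and 207 CPM with extra lysine, against 29.9, 101 and 292 CPM without. It fell by 1.25 ± 0.24 (adjusted p = 0.0041) and was the only member of the list that also passed with counts summed over runs (adjusted p = 0.0145).

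GPT2, the mitochondrial alanine aminotransferase, was a weakly expressed gene at 0.46, 2.09 and 16.5 CPM with extra lysine, against 0.758, 7.32 and 26.3 CPM without (-1.46 ± 0.35, edgeR adjusted p = 0.0254). PCK2, mitochondrial phosphoenolpyruvate carboxykinase, had 1.31, 4.27 and 44.3 CPM with extra lysine, against 2.2, 20.5 and 72.2 CPM without (-1.57 ± 0.36, adjusted p = 0.0187). In both genes lysine values spanned most of the range without extra lysine, yet 21 and 23 of 24 lysine libraries fell below its median. MIOX, which breaks down myo-inositol and is no member of the list, fell by 1.70 ± 0.35 (adjusted p = 0.00645), with medians of 2.19 CPM with extra lysine and 7.04 CPM without.

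Among transporters, SLC7A5, the light chain of the exchanger that brings leucine and other large neutral amino acids into the fibre, had 22.5, 45.4 and 105 CPM with extra lysine, against 29.7, 88.6 and 161 CPM without. It fell by 0.83 ± 0.16 (edgeR adjusted p = 0.0041), with 23 of 24 lysine libraries below the median without extra lysine. Its heavy chain SLC3A2, named after its value was seen, had a difference of -0.61 ± 0.18 (adjusted p = 0.0796). SLC7A1, the main carrier of lysine and arginine themselves, had medians of 5.78 CPM with extra lysine and 7.22 CPM without (-0.46 ± 0.22, adjusted p = 0.254). SLC7A5 was the only one of 24 plasma membrane amino acid transporters tested that passed, and the median of these 24 was -0.10.

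The regulators themselves did not move together. ATF5, a transcription factor under the same translational control as ATF4, had 5.46, 13.6 and 95.7 CPM with extra lysine, against 7.57, 43.2 and 237 CPM without, and fell by 1.54 ± 0.31 (edgeR adjusted p = 0.00645). The mRNA of ATF4, whose activity is set mainly by translation, had a difference of -0.04 ± 0.09 (adjusted p = 0.828). DDIT3, the transcription factor CHOP, was at 0.08 (adjusted p = 0.768), and the ATF4 target TRIB3 at 0.21 ± 0.37 (adjusted p = 0.812). The targets CHAC1 (-0.44, adjusted p = 0.661) and SESN2 (-0.54, adjusted p = 0.429) did not pass either. Apart from TRIB3, these genes that did not pass were named after their values were seen. FGF21, a hormone that muscle releases under amino acid and mitochondrial stress, was at -0.94 ± 0.28 (adjusted p = 0.0815). FGF21 too was named after its value was seen.

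**Figure D2:**
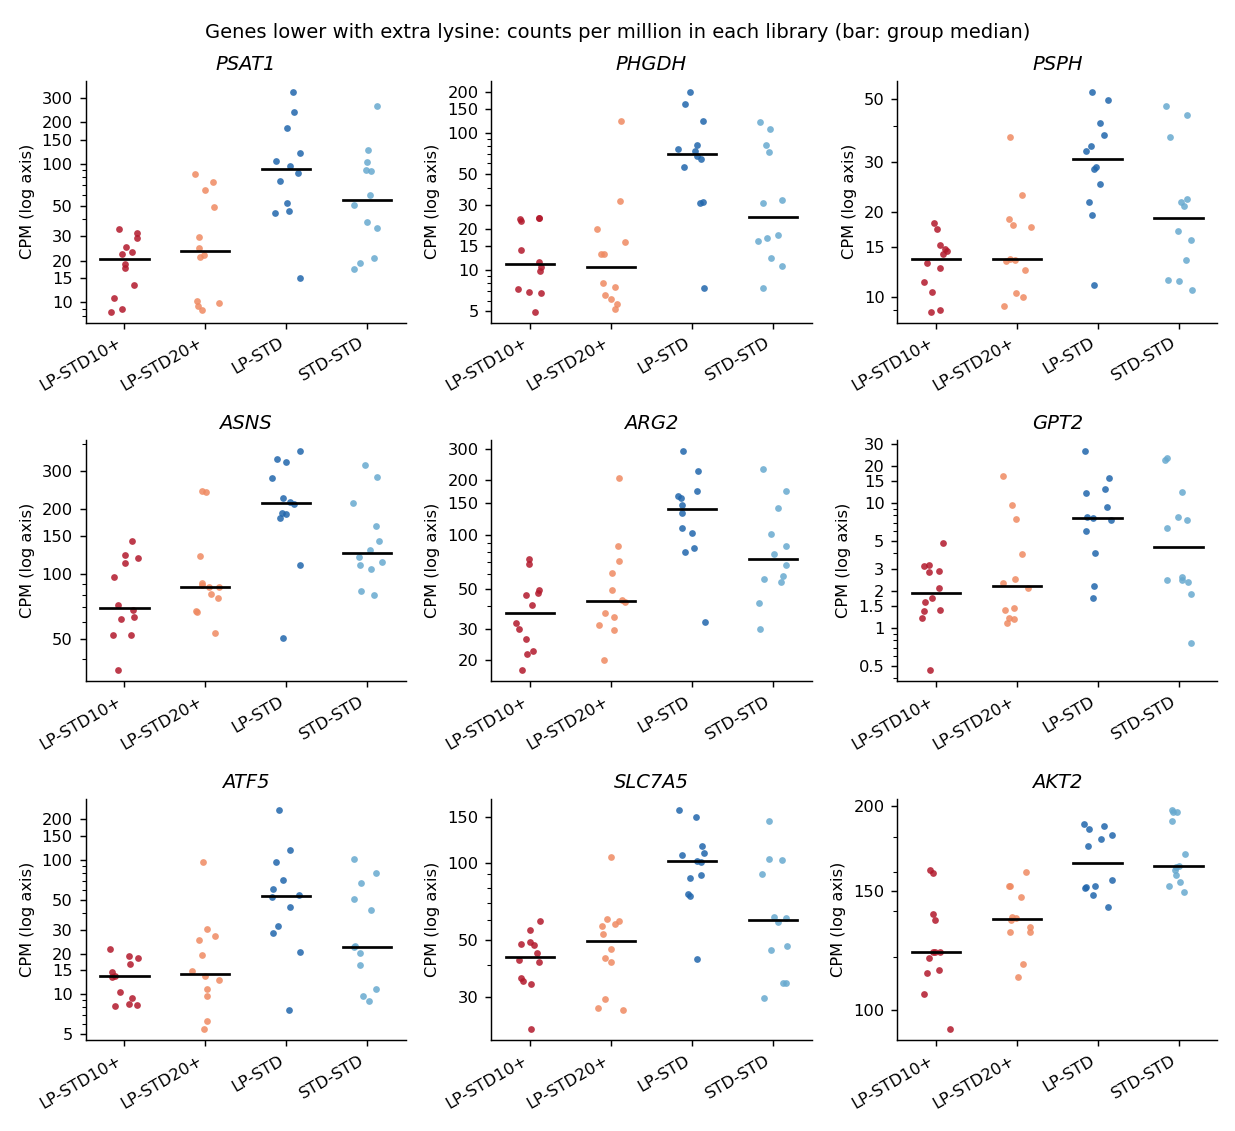
CPM of 9 genes (log axis) in each of the 48 libraries; columns from left are LP-STD10+, LP-STD20+, LP-STD and STD-STD, and bars are group medians (n = 12). PSAT1 medians are 20.5 CPM in LP-STD10+, 23.4 in LP-STD20+, 91.2 in LP-STD and 55.1 in STD-STD, and in AKT2 all 24 lysine libraries lie below the median without extra lysine.

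Genes that charge transfer RNA and start translation formed a smaller group. Of 41 translation factors and aminoacyl-tRNA synthetases tested, 6 fell and 0 rose, with a median of -0.06, beside 0.01 over all genes. None of the 41 passed against STD-STD, where 20 lay below 0 and the median was 0.00. Without library set 1, or without run 1 of LP-STD, 0 of the 41 passed against none. GARS1, which charges glycine, fell by 0.58 ± 0.14 (edgeR adjusted p = 0.0295) and had 45.5, 64 and 163 CPM with extra lysine, against 45.9, 100 and 196 CPM without. SARS1, for serine, fell by 0.49 ± 0.13 (adjusted p = 0.0379), MARS1, for methionine, by 0.44 ± 0.10 (adjusted p = 0.0179), and EPRS1, for glutamate and proline, by 0.22 ± 0.06 (adjusted p = 0.0295). The other 2 were IARS1, for isoleucine, at -0.43 and EIF2S2, the beta subunit of initiation factor eIF2, at -0.26, both named after their values were seen. XPOT, which exports transfer RNA from the nucleus and belongs to the amino acid response list, fell by 0.35 ± 0.08 (adjusted p = 0.0224). XPOT too was named after its value was seen. Of single libraries left out in turn, SARS1 and IARS1 lost their call in 17 of 48 fits and EIF2S2 in 26 of 48. None of these 6 passed with summed or correlated runs, where GARS1 had adjusted p = 0.157 with correlated runs.

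How these falls depend on the stretch of library numbers was measured set by set. The median of the 33 amino acid response genes was -0.66 in set 1, -0.36 in set 2 and -0.38 in set 3, with 8 against 8 libraries in each. Below 0 were 31, 23 and 24 of the 33 genes in sets 1 to 3, and 1 gene rose within set 2. PSAT1 was at -2.14 in set 1, -1.16 in set 2 and -1.94 in set 3, and PHGDH at -2.47 in set 1, -0.57 in set 2 and -2.46 in set 3. PSAT1 and PHGDH are thus below 0 in each set, and a test of the difference between sets gave adjusted p = 0.567 for PSAT1 and 0.18 for PHGDH (edgeR). Of the 33 list genes, edgeR called 0 without set 1, 11 lower without set 2, and 5 lower and 1 higher without set 3. Without single libraries 12 to 13 of the 33 passed, so no single pig carries these calls. Leaving out 1 library cannot show what a run of 4 carries. Mean log2 CPM of the 33 genes was 5.135, 4.343 and 4.836 in runs 1 to 3 of LP-STD. Over all genes, 1 passed within set 1 (0.00767%), 1242 within set 2 (9.53%) and 741 within set 3 (5.69%). Of the 144, 138 had the same sign in all 3 sets, but they were called from these same libraries, so this is no separate test. The share of all tested genes with the same sign in every set was not counted. The lysine difference itself differed between sets in 1006 genes (7.72%), 9 of the 144 among them.

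**Figure D3:**
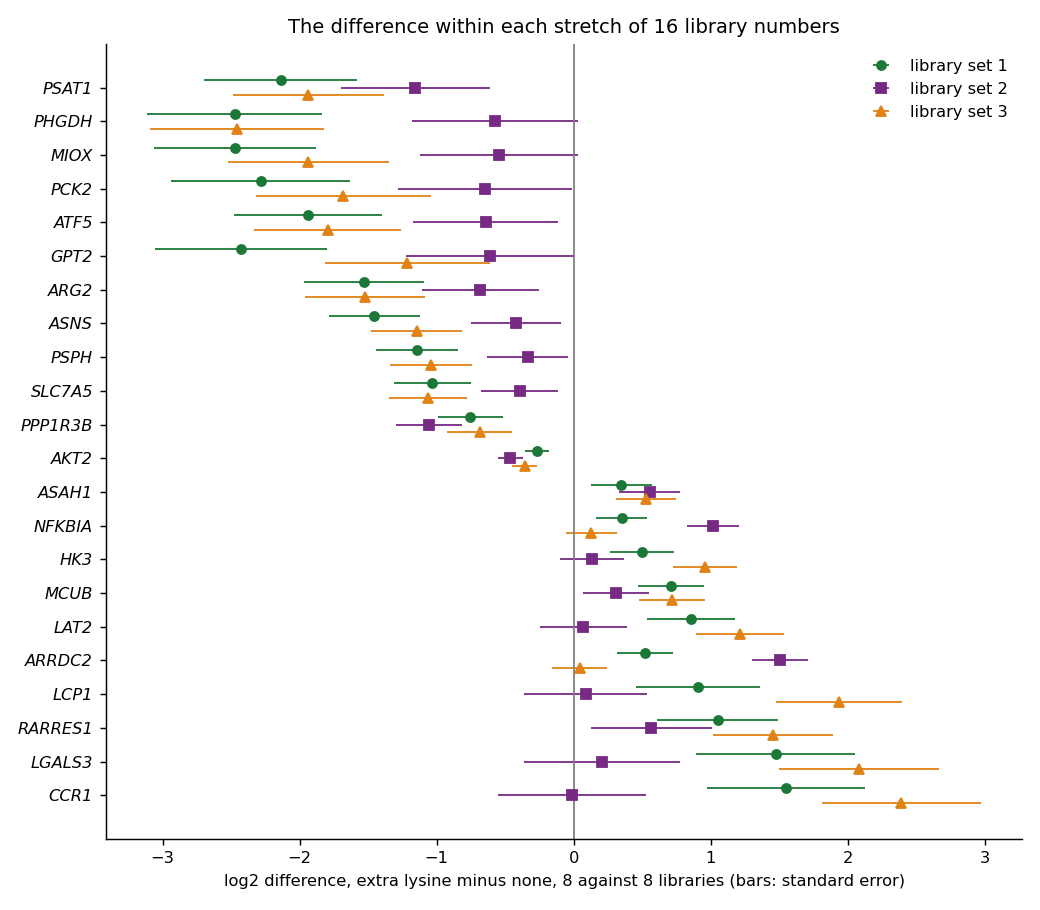
Log2 difference of extra lysine minus none (horizontal axis, bars are SE) within each library set of 8 against 8 libraries, for 22 named genes. The 10 plotted falls from PSAT1 to SLC7A5 are below 0 in all 3 sets, with PSAT1 at -2.14, -1.16 and -1.94, while CCR1 is at 1.55, -0.02 and 2.39 in sets 1 to 3.

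Outside the amino acid response AKT2 fell, the main Akt kinase through which insulin acts on muscle glucose uptake. AKT2 (chromosome 6, 48555785 to 48620472) had 93.8, 132 and 161 CPM with extra lysine, against 142, 163 and 198 CPM without. All 24 lysine libraries lay below the median without extra lysine, and 18 lay below its whole range. The difference was -0.36 ± 0.05 (edgeR adjusted p = 4.6e-05), or 0.778 of the level without extra lysine. It was -0.27 in set 1, -0.46 in set 2 and -0.36 in set 3, and it passed with counts summed over runs (adjusted p = 0.0145), with correlated runs (adjusted p = 0.000705) and without each set, run or library in turn. AKT2 was the only one of 28 mTORC1 and insulin signalling genes to pass, and their median was 0.02.

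PPP1R3B, which brings protein phosphatase 1 to glycogen and so favours glycogen synthesis, had 46.6, 97 and 184 CPM with extra lysine, against 115, 166 and 374 CPM without. Of the lysine libraries 15 of 24 lay below the whole range without extra lysine. It fell by 0.80 ± 0.15 (edgeR adjusted p = 0.00315), passed with correlated runs (adjusted p = 0.00837) and kept its call without each set, run or library. With counts summed over runs it did not pass (adjusted p = 0.128). Of 29 glycolysis and glycogen genes tested, 0 passed, with a median of 0.00.

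Lysine itself is broken down in mitochondria by AASS, ALDH7A1 and GCDH in turn. Of 20 tested genes of lysine breakdown and carnitine synthesis 1 fell, ACAT1, the thiolase that yields acetyl-CoA from acetoacetyl-CoA, at -0.39 ± 0.09 (edgeR adjusted p = 0.012). ACAT1 had 79.9, 99.7 and 149 CPM with extra lysine, against 86.6, 140 and 249 CPM without. AASS, the first enzyme, had 7.1, 12.1 and 18.1 CPM with extra lysine, against 6.68, 9.87 and 16.3 CPM without (0.29 ± 0.10, adjusted p = 0.11). ALDH7A1 was at 0.08 (adjusted p = 0.457) and GCDH at -0.01 (adjusted p = 0.945).

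CABP1, a calcium-binding protein of the calmodulin family, fell by 0.38 ± 0.08 (edgeR adjusted p = 0.00743) and EGLN3, an oxygen-sensing prolyl hydroxylase, by 0.38 ± 0.09 (adjusted p = 0.0298). EGLN3 lost its call without LP-STD run 1 or any of 5 other runs.

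Several smaller falls with narrow spreads were picked out after their values were seen. PREB, which starts the export of proteins from the endoplasmic reticulum, had 52.9, 64.7 and 79.6 CPM with extra lysine, against 65.9, 76.9 and 100 CPM without. It fell by 0.31 ± 0.05 (edgeR adjusted p = 0.000341) and also passed with counts summed over runs (adjusted p = 0.0145). SPHK2, a sphingosine kinase, fell by 0.30 ± 0.05 (adjusted p = 0.00054) and SH3BP5L by 0.27 ± 0.04 (adjusted p = 0.000341), with all 24 lysine libraries below the median without extra lysine in each. SRF, a transcription factor of actin and growth genes, fell by 0.26 ± 0.06 (adjusted p = 0.0106). ARG2, AKT2, PREB, KLHL23, SRF and UBE2QL1 are the 6 genes that passed with counts summed over runs.

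Some genes of mitochondrial proteins outside the respiratory chain list were also among the genes that fell. CLUH, QDPR and PCBD2, named beside them, are not grouped as mitochondrial proteins here. All were again picked out after their values were seen. DNAJA3, a mitochondrial chaperone, fell by 0.26 ± 0.05 (edgeR adjusted p = 0.00849), and CLUH, which binds mRNAs of mitochondrial proteins, by 0.18 ± 0.04 (adjusted p = 0.0143). The mitochondrial ribosomal proteins MRPL54 (-0.17, adjusted p = 0.0272), MRPL35 (-0.20, adjusted p = 0.0305) and MRPL12 (-0.12, adjusted p = 0.0407) fell. They were picked by value from a larger family that was not summarized as a list. MRPL35 was at -0.09, -0.35 and 0.001 against LP-STD in sets 1 to 3, and at -0.26, -0.37 and -0.13 against STD-STD. QDPR and PCBD2, which recycle tetrahydrobiopterin, fell by 0.46 ± 0.10 (adjusted p = 0.00784) and 0.38 ± 0.08 (adjusted p = 0.00743). Of these 7 only DNAJA3 passed with correlated runs (adjusted p = 0.0434).

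No respiratory chain gene passed, yet 51 of 53 lay below 0, with a median of -0.10, while 46.3% of all genes lay below 0. Its lowest p belonged to SDHD, a subunit of complex II (-0.12 ± 0.03, edgeR adjusted p = 0.0684), and NDUFA6 of complex I (-0.17 ± 0.05, adjusted p = 0.071). The median was -0.12 in set 1, 0.06 in set 2 and -0.23 in set 3, so the sign differed between sets. Tricarboxylic acid cycle genes behaved alike in counts, with 21 of 23 below 0, 0 that passed and a median of -0.09. Their median was -0.12 in set 1, 0.04 in set 2, where 6 of 23 lay below 0, and -0.21 in set 3. MDH1, the cytosolic malate dehydrogenase, was at -0.18 ± 0.05 (adjusted p = 0.0663). All 8 genes of the mitochondrial genome were below 0 (median -0.19, 0 passed). Mitochondrial transcripts took a median of 2.88% of counts with extra lysine (1.88 to 3.47%) and 3.05% without (2.3 to 3.99%).

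Genes of protein breakdown and growth control gave no call. Of 24 atrophy and autophagy genes 0 passed, with a median of 0.04. TRIM63 and FBXO32, the ubiquitin ligases of muscle wasting, were at 0.29 ± 0.11 (edgeR adjusted p = 0.175) and 0.11 ± 0.19 (adjusted p = 0.816). Of 39 ribosomal protein genes 0 passed, with a median of -0.02, and of 27 proteasome genes 0 passed, with a median of -0.01. MSTN, which encodes myostatin, a brake on muscle growth, had medians of 24.6 CPM both with and without extra lysine (-0.14 ± 0.10, adjusted p = 0.505). The growth factor IGF1 was at 0.02 ± 0.13 (adjusted p = 0.967). EIF4EBP1, a repressor of translation under mTORC1, had medians of 56.5 CPM with extra lysine and 69.1 CPM without (-0.31 ± 0.10, adjusted p = 0.10).

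Fat genes lay mostly lower without passing. Of 24 genes of fatty acid synthesis and adipocytes 20 were below 0, with a median of -0.31, and 0 passed. ME1, which supplies NADPH for fatty acid synthesis, was at -0.50 ± 0.14 (edgeR adjusted p = 0.0649), and SCD, the stearoyl-CoA desaturase, at -0.85 ± 0.27 (adjusted p = 0.0967). SCD had 25.7, 90.9 and 300 CPM with extra lysine, against 38.4, 149 and 585 CPM without. The list's median was -0.58 in set 1, -0.45 in set 2 and 0.13 in set 3. In bulk muscle, fewer fat or other cells and less RNA per cell cannot be told apart.

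**Figure D4:**
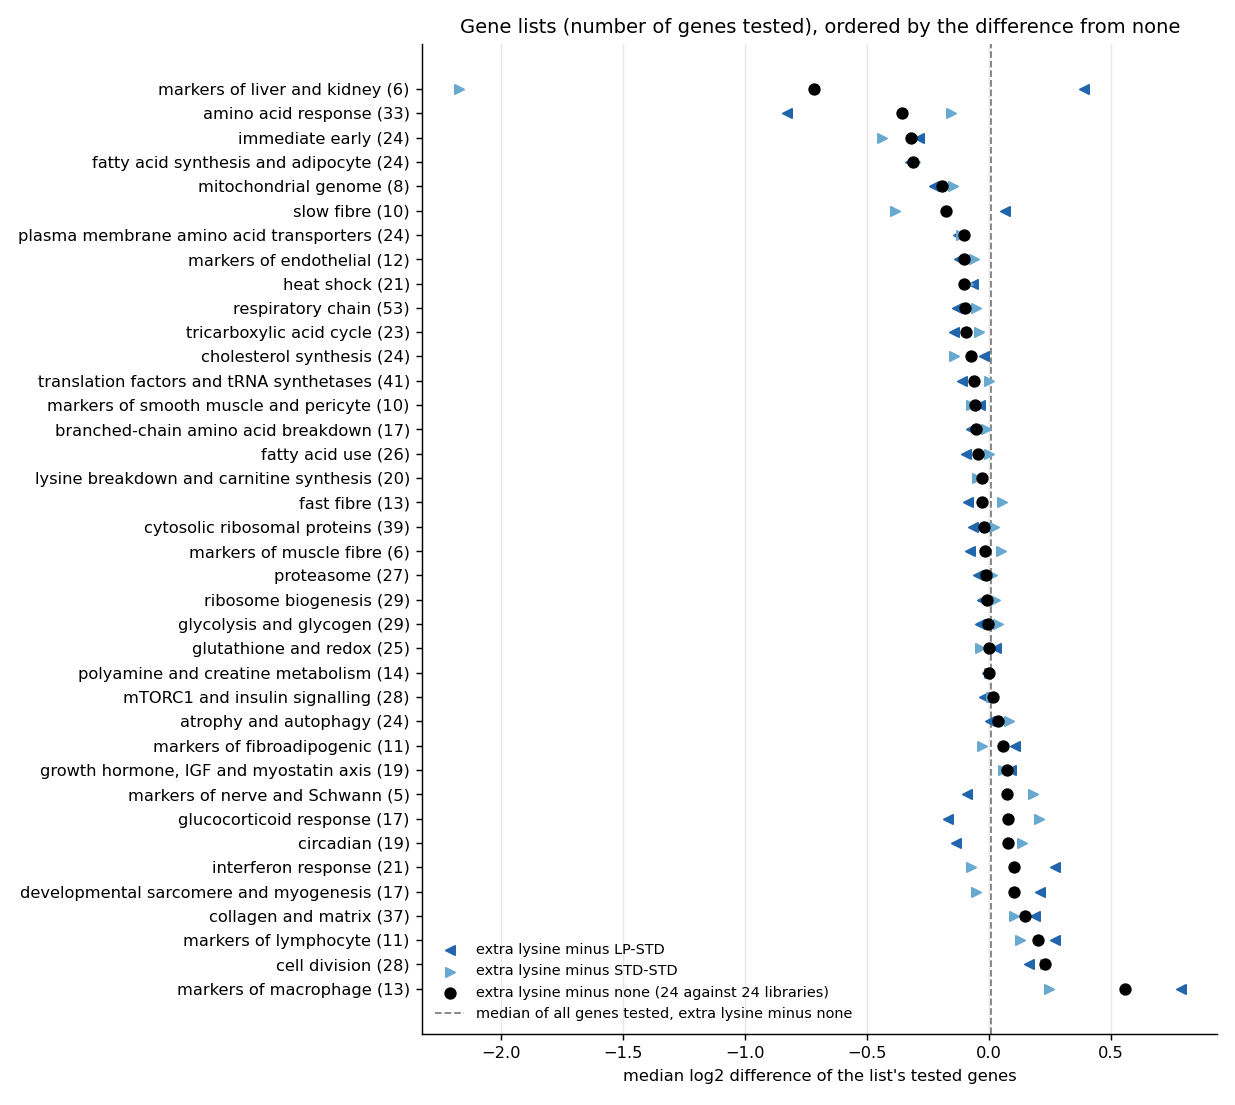
Median log2 difference of each gene list's tested members (number in brackets; horizontal axis) for extra lysine minus LP-STD, minus STD-STD and minus none. The dashed line is the median of all genes, 0.01; the amino acid response is at -0.35 and macrophage markers at 0.56 against none, and liver and kidney markers against STD-STD rest on 1 library.

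Of the 10 largest rises, 5 were genes known from leukocytes (CCR1, LGALS3, LCP1, LAT2 and HK3), a grouping made after their values were seen. CCR1, a chemokine receptor, had 0.329, 2.13 and 17.8 CPM with extra lysine, against 0.187, 0.757 and 2.83 CPM without (1.43 ± 0.35, edgeR adjusted p = 0.0298). LGALS3, galectin-3, had 1.22, 5.86 and 94.1 CPM with extra lysine, against 1.26, 3.51 and 10.1 CPM without (1.38 ± 0.36, adjusted p = 0.0379). LCP1, an actin-bundling protein of leukocytes, had 3.85, 11.3 and 123 CPM with extra lysine, against 3.71, 7.21 and 14.9 CPM without (1.09 ± 0.29, adjusted p = 0.0417). The highest value of each was LP-STD10+ replicate 10, and 6, 7 and 7 of 24 lysine libraries lay above the whole range without extra lysine. RARRES1, a retinoid-responsive gene, rose by 1.18 ± 0.28 (adjusted p = 0.0201), and that library held its highest value too, 27.2 CPM.

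Without LP-STD10+ replicate 10, chosen after seeing the data, CCR1 was at 1.07 (edgeR adjusted p = 0.0888), LGALS3 at 0.89 (adjusted p = 0.139), LCP1 at 0.64 (adjusted p = 0.136) and RARRES1 at 0.74 (adjusted p = 0.0525). LAT2, an adaptor of leukocyte receptors, was at 0.74 ± 0.19 (adjusted p = 0.0379) with all libraries and 0.51 (adjusted p = 0.0822) without it. ASAH1, the lysosomal acid ceramidase, was at 0.49 ± 0.13 (adjusted p = 0.037) with all libraries and 0.37 (adjusted p = 0.0614) without it. HK3, the hexokinase of leukocytes, kept its call, at 0.57 ± 0.14 (adjusted p = 0.0322) with all libraries and 0.40 (adjusted p = 0.0408) without it. CCR1 was at 1.55 in set 1, -0.02 in set 2 and 2.39 in set 3.

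No macrophage marker passed. Of 13 tested 12 lay above 0, with a median of 0.56, and the median was 0.79 against LP-STD and 0.25 against STD-STD, where 4 of 13 lay below 0. With 2 surrogate variables the median against none was 0.22. Summed over the 14 markers in the table, the level was 72.1, 167 and 450 CPM (lowest, median, highest) with extra lysine, against 69.6, 124 and 303 CPM without, and no marker was at 0 in every library of either side. The scavenger receptor MSR1 was at 1.20 ± 0.35 (edgeR adjusted p = 0.0745) and CD68, a lysosomal glycoprotein, at 0.73 ± 0.22 (adjusted p = 0.0855). The list's median was 0.69 in set 1, -0.09 in set 2 and 1.07 in set 3, and 0.32 without LP-STD10+ replicate 10. Without library set 2, 7 of the 13 passed, in a fit that called 776 of 13032 genes, 477 of them higher. That fit kept LP-STD10+ replicate 10. Lymphocyte markers summed to 43.3, 56.1 and 100 CPM with extra lysine, against 33.4, 51.8 and 66.3 CPM without. Their part in the rises was not tested.

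MCUB, NFKBIA and ARRDC2 kept their call without that library, at 0.46, 0.52 and 0.81 (edgeR adjusted p = 0.046, 0.0223 and 0.0111). MCUB, an inhibitory subunit of the mitochondrial calcium uniporter, had 1.6, 3.48 and 9.92 CPM with extra lysine, against 1.32, 2.51 and 4.84 CPM without, with 23 of 24 lysine libraries above the median without extra lysine (0.59 ± 0.14, edgeR adjusted p = 0.0262). NFKBIA, the inhibitor that holds NF-kappaB in the cytoplasm, had 11.4, 22.2 and 50 CPM with extra lysine, against 10.4, 14.4 and 23.6 CPM without (0.50 ± 0.12, adjusted p = 0.0272). Of the lysine libraries 10 of 24 lay above its whole range without extra lysine. In sets 1 to 3 NFKBIA was at 0.24, 1.05 and -0.17 against LP-STD, and at 0.46, 0.99 and 0.43 against STD-STD. ARRDC2, of the arrestin domain family and a member of the glucocorticoid response list, rose by 0.79 ± 0.17 (adjusted p = 0.0101). Its medians were 26 CPM in LP-STD10+, 11.8 in LP-STD20+, 10.3 in LP-STD and 9.56 in STD-STD. ARRDC2 was at 0.52 in set 1, 1.51 in set 2 and 0.04 in set 3, and it differed between runs of 1 group (adjusted p = 0.00108). SLC44A1, a choline transporter, rose by 0.39 ± 0.10 (adjusted p = 0.0379), and was at 0.37 (adjusted p = 0.0689) without LP-STD10+ replicate 10 and lost its call in 21 of 48 fits without 1 library. None of the 10 largest rises passed with correlated runs, where MCUB had the lowest of their adjusted p-values, 0.0977.

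Cell division genes lay above 0 in 27 of 28 cases, with a median of 0.23, and 0 passed. RRM2, a subunit of ribonucleotide reductase, was at 0.41 ± 0.19 (edgeR adjusted p = 0.252), and its highest library, at 26.5 CPM, was again LP-STD10+ replicate 10. Without that library RRM2 was at 0.12 (adjusted p = 0.708) and the list's median was 0.07. With all libraries the median was -0.04 in set 1, 0.18 in set 2 and 0.39 in set 3. Collagen and matrix genes lay above 0 in 31 of 37 cases with a median of 0.15 and 0 that passed, LAMA2, a laminin of the fibre's basement membrane, being at 0.19 ± 0.05 (adjusted p = 0.0657). The list's median was 0.12 in set 1, 0.01 in set 2 and 0.26 in set 3, with 16 of 37 below 0 in set 2. LAMA2 was at -0.001, 0.39 and 0.04 against LP-STD in sets 1 to 3, and at 0.30, 0.40 and -0.02 against STD-STD.

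LP-STD is the group that shares the low protein start, and against it the falls were mostly larger in size. There 76 of 13032 genes passed (0.583%), 19 higher and 57 lower, with 10 when counts were summed over runs (0.0767%) and 14 with correlated runs (0.107%). This comparison uses the same lysine libraries as the one above, so its values are given side by side and not as a second test. Of the amino acid response list 14 fell and 0 rose, with 29 of 33 below 0 and a median of -0.83. PSAT1 was at -2.14 ± 0.36 (edgeR adjusted p = 0.00131), PHGDH at -2.24 ± 0.41 (adjusted p = 0.00233), ATF5 at -1.98 ± 0.36 (adjusted p = 0.00228), PCK2 at -1.90 ± 0.42 (adjusted p = 0.0159) and MIOX at -1.89 ± 0.40 (adjusted p = 0.0104).

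The 2 further members that fell against LP-STD were FGF21 (-1.56 ± 0.33, edgeR adjusted p = 0.0111) and SLC3A2 (-0.87 ± 0.22, adjusted p = 0.0455). FGF21 medians were 3.06 CPM in LP-STD10+, 3.46 in LP-STD20+, 6.66 in LP-STD and 4.63 in STD-STD. EIF4EBP1 fell against LP-STD (-0.53 ± 0.12, adjusted p = 0.0162), as did the mitochondrial chaperone HSPA9 (-0.31 ± 0.07, adjusted p = 0.0158). In sets 1 to 3 EIF4EBP1 was at -0.84, 0.05 and -0.73 against LP-STD, and HSPA9 at -0.52, -0.18 and -0.21. Of the 41 translation factors and synthetases 7 fell and 0 rose. The largest rises were CCR1 (1.86 ± 0.47, adjusted p = 0.0473), LAT2 (0.97 ± 0.25, adjusted p = 0.048), MCUB (0.75 ± 0.18, adjusted p = 0.0303), SLC44A1 (0.54 ± 0.13, adjusted p = 0.0302) and PGLS, an enzyme of the pentose phosphate pathway (0.42 ± 0.10, adjusted p = 0.0273). These values include LP-STD10+ replicate 10, and without that library 70 genes passed against LP-STD, 12 higher and 58 lower. Values of these rises against LP-STD without it are not given here. CCR1 was at 2.53, 0.19 and 2.56 against LP-STD in sets 1 to 3, and LAT2 at 1.35, 0.14 and 1.37. Within sets 222 genes passed in set 1 (1.7%), 554 in set 2 (4.25%) and 82 in set 3 (0.629%), and 12, 1 and 1 of the amino acid response genes were lower in these. Without LP-STD replicate 5, 548 genes passed, and without run 1 of LP-STD 9 passed.

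Against STD-STD extra lysine and the earlier low protein diet cannot be told apart. Here 62 genes passed (0.476%), 15 higher and 47 lower, with 2 by correlated runs (0.0153%). Summed over runs edgeR called 0 (0%), with 880 genes at p under 0.05 before adjustment. Of the amino acid response genes 1 fell, PSAT1 (-1.53 ± 0.36, edgeR adjusted p = 0.0378), with 24 of 33 below 0 and a median of -0.16. PHGDH was at -1.36 ± 0.42 (adjusted p = 0.132), ASNS at -0.71 ± 0.23 (adjusted p = 0.152) and SLC7A5 at -0.54 ± 0.19 (adjusted p = 0.185). LP-STD and STD-STD themselves differed in 0 genes by edgeR (0%), with 1319 at p under 0.05 before adjustment.

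**Figure D5:**
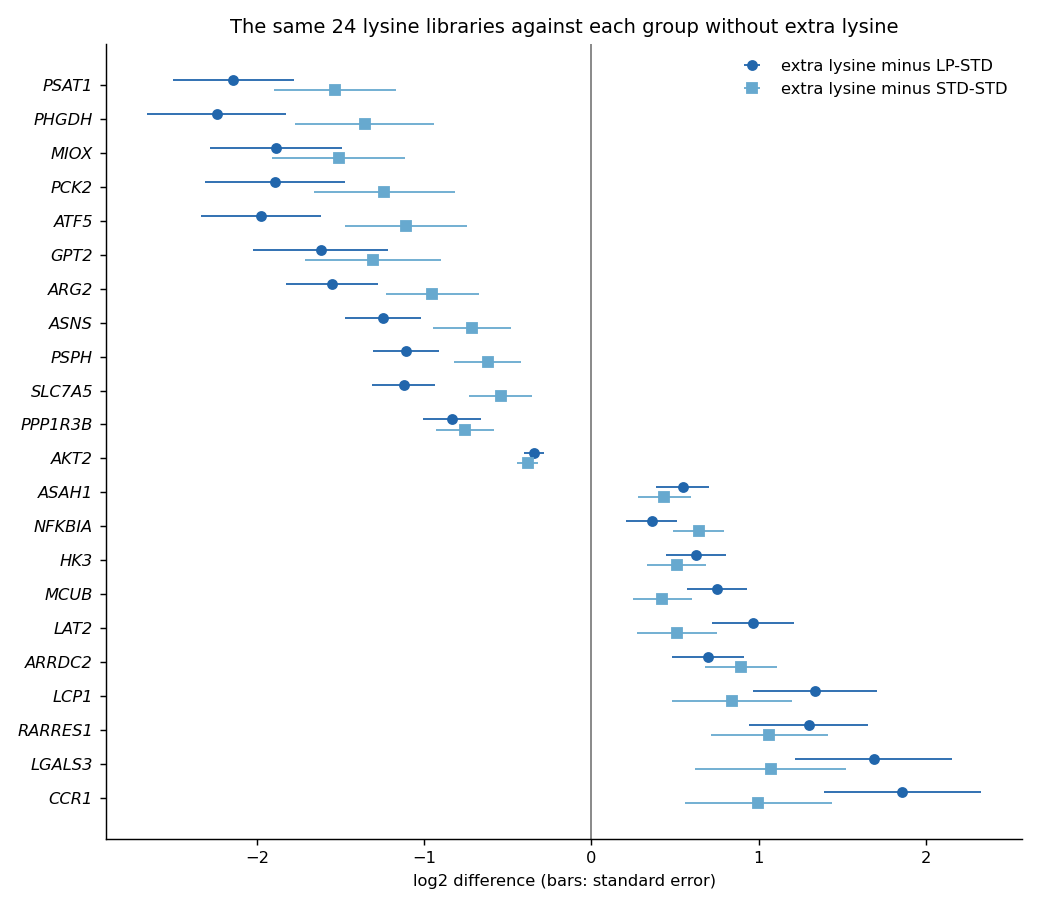
Log2 difference (horizontal axis, bars are SE) of the same 24 lysine libraries minus LP-STD and minus STD-STD, for 22 named genes. PSAT1 is at -2.14 and -1.53 and SLC7A5 at -1.12 and -0.54, while AKT2 is at -0.34 and -0.38.

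AKT2 lay lower than either group, by 0.34 ± 0.06 against LP-STD (edgeR adjusted p = 0.00181) and by 0.38 ± 0.06 against STD-STD (adjusted p = 0.00116). PPP1R3B was at -0.83 ± 0.17 against LP-STD (adjusted p = 0.00859) and -0.76 ± 0.17 against STD-STD (adjusted p = 0.0273). CABP1 (-0.52 ± 0.10, adjusted p = 0.00572) and EGLN3 (-0.52 ± 0.11, adjusted p = 0.0187) fell against STD-STD but did not pass against LP-STD, where they were at -0.25 (adjusted p = 0.162) and -0.23 (adjusted p = 0.272). INSIG1, which holds back cholesterol synthesis, fell against STD-STD (-0.76 ± 0.19, adjusted p = 0.0486). INSIG1 was at -1.15, -1.16 and 0.15 against STD-STD in sets 1 to 3, and at -0.02 against LP-STD over all libraries (adjusted p = 0.975).

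Of 26 genes of fatty acid use 2 rose against STD-STD, PDK4 and UCP3, while 13 lay below 0 and 13 above, with a median of 0.00. With correlated runs no gene at all rose against STD-STD. PDK4, the kinase that shuts pyruvate dehydrogenase, was at 4.22 ± 0.95 (edgeR adjusted p = 0.0264) but at -0.65 ± 0.73 against LP-STD (adjusted p = 0.689). Its run means in LP-STD10+ were 623, 369 and 9.38 CPM, in LP-STD20+ 23.2, 15.6 and 67.6 CPM, in LP-STD 482, 9.72 and 19.1 CPM and in STD-STD 9.01, 3.95 and 4.5 CPM. High values were thus held by 3 runs of 2 groups, 1 of them without extra lysine, and PDK4 differed between runs of 1 group (adjusted p = 0.000471). Without run 1 of LP-STD10+ PDK4 was at 3.81 (adjusted p = 0.0685), and without run 2 at 4.18 (adjusted p = 0.0675). KLF11, a transcription factor, rose by 1.55 ± 0.33 (adjusted p = 0.0182) and UCP3, a mitochondrial carrier, by 1.07 ± 0.27 (adjusted p = 0.0471). Against LP-STD they were at 0.10 (adjusted p = 0.90) and 0.17 (adjusted p = 0.777). Of the same 26 genes, 0 passed between extra lysine and none.

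The liver genes ALB and FGB were the largest falls against STD-STD, at -4.16 (edgeR adjusted p = 0.00572) and -2.82 (adjusted p = 0.00901). Both rest on STD-STD replicate 10, which had 74.5 CPM of ALB and 19.2 CPM of FGB. Every lysine library had at most 2.2 CPM of ALB and 0.5 CPM of FGB. Without that library ALB was at 0.70 (adjusted p = 0.654) and FGB at -0.59 (adjusted p = 0.602). Summed over 13 liver and kidney markers the level was 14.4 to 47.2 CPM with extra lysine, against 16.0 to 171 CPM without.

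The 2 lysine levels were compared directly, which uses no library without extra lysine. Between LP-STD20+ and LP-STD10+ edgeR called 0 of 13032 genes (0%), 727 genes had p under 0.05 before adjustment, DESeq2 called 3 and limma voom with correlated runs 0. PSAT1 had a median of 23.4 CPM in LP-STD20+ and 20.5 CPM in LP-STD10+, PHGDH 10.6 and 11 CPM, and ASNS 87.1 and 69.6 CPM. AKT2 had medians of 136 CPM in LP-STD20+ and 122 CPM in LP-STD10+, and PPP1R3B 116 and 77 CPM. Differences of LP-STD20+ minus LP-STD10+ were 0.75 ± 0.44 (SE) for PSAT1, 0.61 ± 0.50 for PHGDH, 0.13 ± 0.07 for AKT2 and 0.42 ± 0.20 for PPP1R3B, none past the threshold. A p that misses the threshold does not show that the levels act alike.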

How the data were processed

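RNA of the longissimus dorsi was sequenced in 67 libraries, of which 48 enter the comparisons. The authors deposited raw read counts per gene, as whole numbers with no normalization. Sscrofa11.1 and DESeq2 are named, per the submitters' processing notes. The sources used here name no aligner, counter or strand setting, so overlapping, antisense and near-identical genes are uncertain. Libraries are separate pigs per the design text; the sex and litter of each library were not used here. Every column of the table has a sample (columns not used: 0).

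Counts were fitted in edgeR 4.0.16 (R 4.3.3) with filterByExpr, TMM factors and the robust quasi-likelihood test, with 1 mean per group over 48 libraries. Extra lysine is the mean of LP-STD10+ and LP-STD20+, and none is the mean of LP-STD and STD-STD. Of 18158 genes 13032 were tested, and p-values were adjusted over all of them by Benjamini-Hochberg with a threshold of 0.05. CPM are counts scaled by TMM library size, and log2 CPM uses a prior count of 2. Alternatives were RLE factors, DESeq2 1.42.0, limma 3.58.1 voom with quality weights, no count filter, CPM of at least 1 in at least 12 libraries, a replicate or library set block, 2 surrogate variables (sva 3.50.0), a covariate of Y-linked counts, all 67 libraries, 2 group means, counts summed over runs of 4 libraries, and voom with correlated runs (correlation 0.0774). Library sets were left out in turn. After seeing the data, leave-outs of runs and of single libraries were added, and for STD-STD those of sets too. The fit of extra lysine against none was tested on simulated data. These counts were drawn without differences between runs or sets, so that test does not cover such differences. Summaries and plots used Python 3.11.15 with matplotlib 3.10.9, pandas 2.3.3, numpy 2.4.6 and scipy 1.17.1.

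The comparison, its members and the gene lists were chosen with earlier results of these data known. Named genes are the 10 largest rises and the 10 largest falls that passed between extra lysine and none with a mean log2 CPM of at least 1 and a symbol other than a LOC number. The 5 largest of each direction were taken against LP-STD and against STD-STD. Up to 4 passing members of each list by p were added, or the 2 with the lowest p where none passed, with a few genes of lysine use. Others are said to be named after their values were seen. Coordinates are those of the RefSeq table of Sscrofa11.1, which holds 16989 of the gene names (93.6%). Intervals and SE cover the spread between these libraries. A result of the named-gene rule is not reported here.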

Additional observations from a re-analysis of the deposited data

Results flagged for a closer look

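The difference between extra lysine and none differed between library sets in 1006 of 13032 genes, or 7.72% (edgeR quasi-likelihood test of the group by set term, adjusted p under 0.05). Among named genes and list members with the lowest p this held for 6, whose log2 differences are given in the order of sets 1 to 3. How many genes were looked at for these 6 is not given here, so they are not shown to exceed the share over all genes. ALB, the liver gene for albumin, was at 0.35, 1.40 and -3.89 (edgeR adjusted p of the set difference = 0.00516). ARNTL, a core clock transcription factor, was at 0.06, -1.73 and 0.31 (adjusted p = 0.00339). ARRDC2 was at 0.52, 1.51 and 0.04 (adjusted p = 0.0211). FOSL1, an early response transcription factor, was at 0.85, -0.55 and 3.45 (adjusted p = 0.0112). HSP90AA1, a heat shock chaperone, was at -0.09, -0.38 and 0.09 (adjusted p = 0.0222). TNC, a matrix protein of tissue repair, was at 0.78, -0.20 and 2.78 (adjusted p = 0.0389).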

How the results depend on the processing

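Against none, 144 genes passed, and the count was 290 by DESeq2, 71 with all 67 libraries, 28 with correlated runs and 6 with counts summed over runs. Leaving out sets, runs or libraries gave 56 (without set 1) to 776 (without set 2), with 251 without run 2 of LP-STD, 88 and 86 without runs 2 and 3 of STD-STD, 251 without LP-STD replicate 5, and 242 and 235 without LP-STD10+ replicates 2 and 12. Against LP-STD, 76 passed, and 406 by DESeq2, 124 with quality weights, 45 with all libraries, 27 with 2 surrogate variables, 14 with correlated runs and 10 with summed runs. Leave-outs gave 4 (without set 1) to 1428 (without set 2), with 44 without set 3, 9 and 722 without runs 1 and 2 of LP-STD and 212 without run 2 of LP-STD10+. Without LP-STD replicates 2, 3, 4, 5, 6, 7 and 10 it was 31, 45, 42, 548, 185, 50 and 44, without LP-STD10+ replicate 2 it was 136, and without LP-STD20+ replicates 5 and 9 it was 200 and 138. Against STD-STD, 62 passed, and 114 by DESeq2, 2 with correlated runs and 0 with summed runs. Leave-outs gave 2 (without set 2) to 149 (without set 3), 14 without set 1, 31, 18 and 147 without runs 1 to 3 of LP-STD10+, 11 and 39 without runs 2 and 3 of LP-STD20+, 11, 5 and 27 without runs 1 to 3 of STD-STD, and at least 29 without any 1 library. ALB against STD-STD, at -4.16, was at 0.30 with correlated runs, 0.91 without set 3, 0.56 without run 3 of STD-STD and 0.70 without STD-STD replicate 10, a range of -5.30 to 0.91 over leave-outs. The 2 lysine levels differed in 0 genes, 3 by DESeq2 and 1 with the replicate block. The set difference, 1006 genes, was 596 with each of the 4 groups by set. With the replicate block 130 genes passed against none, 95 against LP-STD and 47 against STD-STD; same-numbered libraries correlated at -0.266 to 0.291, so the numbers do not pair them. Apart from these counts of genes, 16442 values for genes and lists were labelled the same under the alternatives. Of the others 1121 lost the call, 158 gained it, 2 moved and 4 were reversed, all 4 for ALB against STD-STD. That tally does not show whether values without a call kept their sign. The erythroid list has no gene left under the CPM filter. The causes of these shifts were not tested.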

Other observations

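Early response genes, transcribed within minutes of a stimulus, lay lower with extra lysine without passing: 18 of 24 were below 0, with a median log2 difference of -0.32, and sets 1 to 3 gave -0.49, -0.60 and 0.47. NR4A3, an orphan nuclear receptor of this group, was at -1.48 ± 0.46 (SE, edgeR adjusted p = 0.0947) and FOS at -1.03 ± 0.39 (adjusted p = 0.148). Heat shock genes were below 0 in 19 of 21 cases, with a median of -0.10, and 0 passed. Their median was -0.05 in set 1, -0.34 in set 2 and 0.11 in set 3. Of the 21, 11 differed by set, beside 1006 of all 13032 genes (7.72%). Of 10 slow fibre genes 9 lay below 0, with a median of -0.17, but the median was 0.07 against LP-STD and -0.38 against STD-STD. The slow myosin light chain MYL3 was at -0.27 ± 0.12 (adjusted p = 0.232) and the slow troponin TNNT1 at -0.23 ± 0.12 (adjusted p = 0.298). Of 13 fast fibre genes 0 passed, with a median of -0.03.

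Interferon response genes lay above 0 in 16 of 21 cases, with a median of 0.10, and 0 passed. The median was 0.27 against LP-STD, but -0.07 against STD-STD, where 16 of 21 lay below 0. Their lowest p belonged to DDX58, the RNA sensor RIG-I, which went the other way (-1.21 ± 0.47, edgeR adjusted p = 0.162). Genes of muscle development had a median of 0.10, with 12 of 17 above 0 and 0 that passed. Sets 1 to 3 gave 0.26, -0.33 and 0.34, and against STD-STD the median was -0.05, with 10 of 17 below 0. PAX7, which marks muscle stem cells, was at 0.21 ± 0.07 (adjusted p = 0.127). Branched-chain amino acid breakdown had 14 of 17 genes below 0 and a median of -0.05, and endothelial markers 10 of 12 below 0 and a median of -0.10. No gene passed in either list. Y-linked transcripts were present in 5 of 12 LP-STD10+ libraries and in 6 of 12 of each other group.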
